A study of Mus musculus with 12 samples.

Results

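Annotated RNA features at genes of the blood vessel wall were followed in mouse brain, in total RNA and in RNA recovered with the U1 small nuclear ribonucleoprotein. Of the 55471 identifiers in the count tables, 10 belong to this set. Gja4, Bvht, 4930466I24Rik and Gm12158 were taken by name. The other 6 had at least 50% of their exon bases, by GENCODE M21 on build mm10, inside Nos3, Slc2a1, Ets1, Abcb1a or Col4a2 on the opposite strand. The loci were selected on their high U1 to input ratios in these same libraries, so those ratios are given as a description without a test.

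Mixed cortex and hippocampus came from C57BL6JL male mice aged 3 to 5 months. The animals were naive or had received maximal electroconvulsive stimulation (MECS), 85 mA for 1 s, 90 min before dissection. All tissue was homogenized and irradiated with ultraviolet light at 400 mJ/cm2, which links RNA to bound protein. Input RNA was set aside from each lysate and the rest was precipitated with an antibody to U1-70K, a protein of the U1 particle. Each of the 4 groups, input and U1 RNA from naive and from MECS brain, had 3 libraries. Input and U1 libraries with the same title prefix are treated as 1 lysate, and the labels do not say whether a lysate held tissue of 1 mouse or several. If several libraries of a group shared a source, p-values measure only the spread between these libraries. No control precipitate was analysed here, so binding to U1 and other differences in recovery cannot be told apart.

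The U1 particle recognises the start of introns: the end of its RNA pairs with the 5′ splice site, and it also binds similar sites inside introns, where it is known to protect young transcripts from early cleavage. In brain, endothelial cells line the vessels and form the blood-brain barrier, pericytes and smooth muscle surround them, and a collagen IV basement membrane lies between. Nos3 makes endothelial nitric oxide, which relaxes the vessel. Slc2a1 carries glucose and Abcb1a pumps drugs out at the barrier. Fgd5, a guanine nucleotide exchange factor, is an endothelial gene, and Ets1 and Ebf1 are transcription factors, Ebf1 being prominent in pericytes as well as B cells. Gja4 encodes the connexin of arterial gap junctions, Col4a2 a collagen IV chain, and Bvht a long noncoding RNA known from heart development.

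Of the 10 features 8 lie opposite a host gene, and all 8 are on the minus strand under a host read from the plus strand. Gm15587 (chromosome 5, 24366192 to 24383614) has 6 exons, with 27.7% of its exon bases over exons of Nos3. Slc2a1 holds 2 features. Gm12867 (chromosome 4, 119130292 to 119131001) is wholly intronic, and Gm12868 (chromosome 4, 119133749 to 119138801) runs past the end of Slc2a1, with 65.5% of its exon bases inside the host and 25.2% over its exons. Gm42686 (chromosome 5, 8731661 to 8735768), a single block without introns, lies in Abcb1a with 13.5% over exons. The features 4930466I24Rik in Fgd5 (chromosome 6, 92012394 to 92016117), Gm27240 in Ets1 (chromosome 9, 32709652 to 32711171) and Gm12158 in Ebf1 (chromosome 11, 44659522 to 44662676) are wholly intronic. Gm15419 in Col4a2 (chromosome 8, 11399186 to 11417892) has 5.8% over exons. Gja4 (chromosome 4, 127311421 to 127314039, minus strand) and Bvht (chromosome 18, 61639542 to 61647472, plus strand) have no opposite-strand gene in GENCODE M21. RefSeq on GRCm38.p6, however, extends the noncoding gene Carmn over 1595 bases of Bvht. The library kit keeps strand, but no source used here tells whether reads were counted by strand, so reads of a feature and of its opposite-strand host cannot be told apart.

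**Figure D1:**
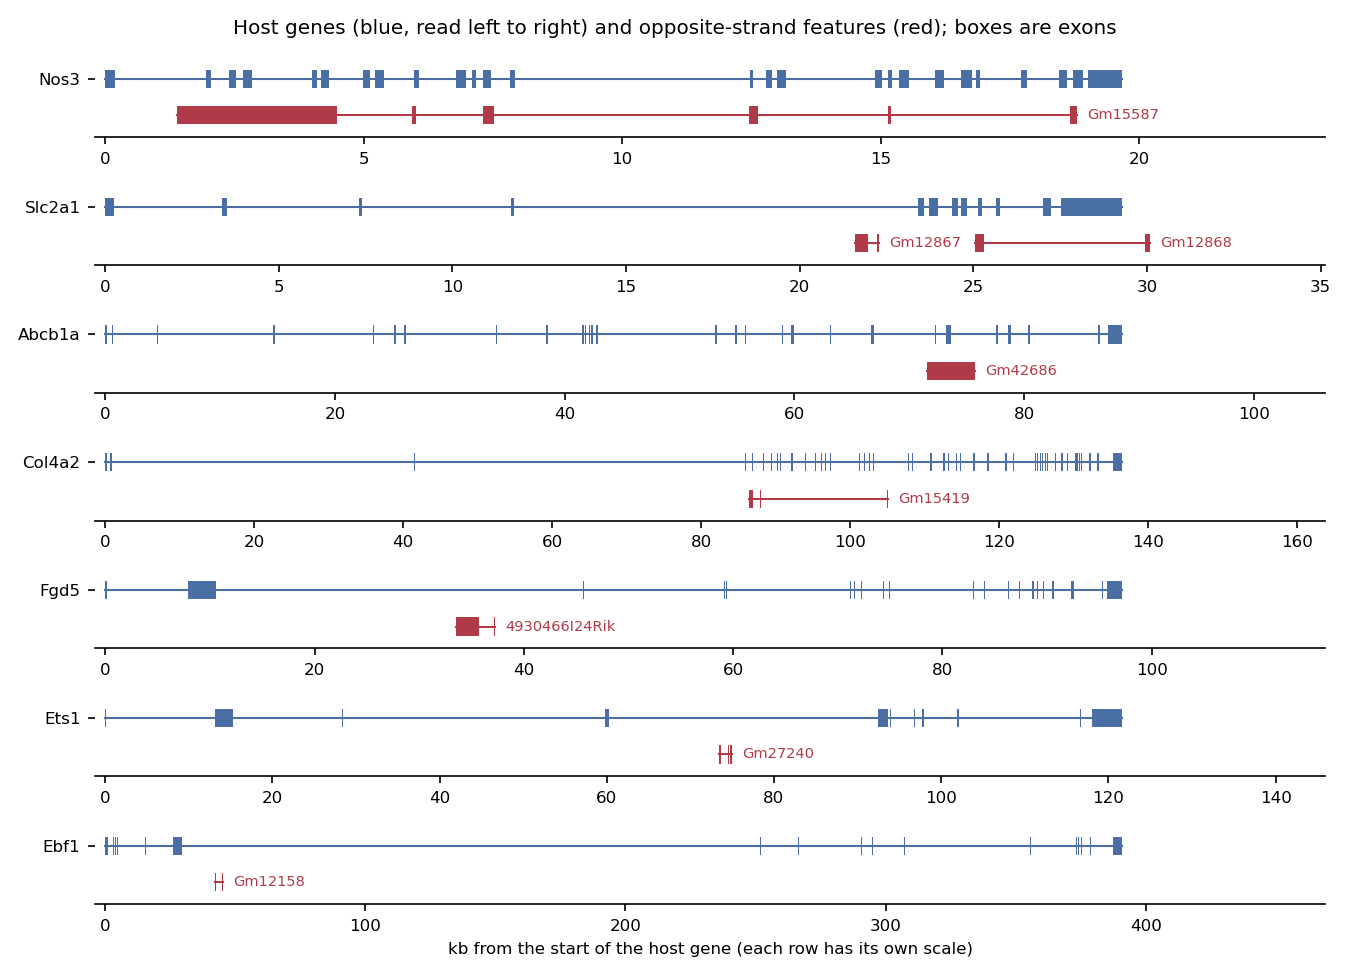
The 7 host genes (blue) and the 8 features on their opposite strand (red), drawn in kb from the start of each host, with boxes for exons and a separate scale for each row. Gm15587 spans most of Nos3, whereas Gm12158 takes up a short stretch of an Ebf1 intron of the 390.8 kb gene.

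Sequences are shown because the antibody is directed at a protein of the particle that reads 5′ splice sites. They were read on the host's strand, 5′ to 3′, from the reverse complement of the GENCODE transcripts of the features. In the first set, 5′ splice sites of the host that fall inside a feature, capitals mark the last 3 exon bases and the first 6 intron bases. The sites are at chr5:8732380-8732408 in Abcb1a, chr5:24366850-24366878 and chr5:24368898-24368926 in Nos3 and chr4:119133947-119133975 in Slc2a1, all on the plus strand of mm10.
Abcb1a site in Gm42686: agataccataCAGGTAAGAtgccttaaag
Nos3 first site in Gm15587: ccaggctcagCAGGTAAGGacaggtcctg
Nos3 other site in Gm15587: gaggcaatctTCGGTGAGTgaccctgccc
Slc2a1 site in Gm12868: cactgtggtgTCGGTGAGTctcgcttttg
Against CAGGTAAGT, the full complement of the end of U1 RNA, the Abcb1a site and the first Nos3 site match at 8 of 9 bases, and the other Nos3 site and the Slc2a1 site at 6. In all, 9 annotated host 5′ splice sites lie inside exons of these features, 6 in Gm15587, 2 in Gm42686 and 1 in Gm12868. The sites shown are only a part of these. The second Abcb1a site and the remaining Nos3 sites match at 6 bases, except 1 Nos3 site, at chr5:24369119-24369147, that matches at 4.

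The other 5 hosted features hold no annotated 5′ splice site of their host. A stretch with the most matches to CAGGTAAGT, in capitals, is shown for each as the nearest likeness to a 5′ splice site. As many matches were found at 5 places in 4930466I24Rik and at 2 each in Gm27240, Gm12158 and Gm12867. Of these a stretch with GT at the intron start, where there was one, and then the one of lowest coordinate, was taken. The positions are chr6:92012400-92012428 in Fgd5, chr9:32709752-32709780 in Ets1, chr11:44659551-44659579 in Ebf1, chr4:119130362-119130390 in Slc2a1 and chr8:11400690-11400718 in Col4a2, on the plus strand.
Fgd5, in 4930466I24Rik: ttcctgtattTATGTAAGTtccccatggg
Ets1, in Gm27240: agagtgggccCTGGTGAGTtgttgtggct
Ebf1, in Gm12158: atattaacctCAGGGAAGGgtgcaactta
Slc2a1, in Gm12867: tcataatttcCCAGTGAGTtccttctgca
Col4a2, in Gm15419: aataagtcctGAAGGAAGTggagcagaaa
The Fgd5, Ets1 and Ebf1 stretches match at 7 of 9 bases, and those in Gm12867 and Gm15419 at 6. Those in Gm12158 and Gm15419 have GG where a 5′ splice site has GT. None of the 8 hosted features holds CAGGTAAGT in full, against 0.52% of 8199 annotated features inside a host. In windows of 300 exon bases, GTAAGT on the host's strand occurred in 3 of 33 windows (9.1%), against 5.2% of 25807 windows of all such features. On the features' own strand it occurred in 0 of 33 windows, against 4.2%. GGTAAG, which overlaps GTAAGT in the run GGTAAGT, was in 6.1% of the windows on the host's strand, against 5.4%. On the features' own strand it was also in 6.1%, against 4.4%. A host 5′ splice site lay inside 3 of the 8 features (37.5%), against 18.5% of the 8199. With so few features these are descriptions, and a match of letters is not a binding site.

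Library totals over annotated features ran from 704432 counts in naive input 2 to 1962312 in naive U1 2, 1.42% to 1.84% of the reads listed in the tables. The 10 features together held 0.0824% to 0.128% of the gene counts in input and 0.188% to 0.323% in U1. Values are given as CPM, a count divided by the TMM-scaled total of its library and brought to a common scale. Counts under a gene's own symbol cannot be read as its mRNA level, because the strand counted is not known: Slc1a2, a glutamate transporter of astrocytes, averaged 112 CPM under its own symbol and 3018 CPM in the features opposite to it. With that limit, several endothelial genes had few counts under their own symbols: Cldn5 had 1 to 7 counts per library, Cdh5 1 to 10, Kdr 1 to 7 and Pecam1 0 to 21, whereas Tek had 86 to 335. The summed CPM of 30 endothelial genes was 430 to 473 in naive input, 414 to 440 in MECS input, 553 to 692 in naive U1 and 492 to 518 in MECS U1. Tek, Podxl and Mmrn2 were the most abundant, at means of 150, 63.0 and 56.2 CPM over the 12 libraries. In such bulk tissue, fewer cells of a type and less RNA per cell cannot be told apart.

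The feature inside Nos3 was among the most abundant. Gm15587 had 234, 271 and 263 CPM in the 3 naive inputs and 617, 712 and 1145 CPM in the 3 naive U1 libraries. After MECS the values were 314, 306 and 184 CPM in input and 1001, 955 and 645 CPM in U1. All 6 U1 libraries lay above all 6 inputs, and the U1 to input ratio of single lysates was 2.63 to 4.36 in naive brain and 3.12 to 3.51 after MECS. On the log2 scale the fitted ratio was 1.70 (SE 0.19) in naive and 1.69 (SE 0.19) in MECS brain. No change after MECS was called in either kind of RNA by edgeR's quasi-likelihood test. The log2 change was 0.05 (SE 0.17, adjusted p = 0.956) in input and 0.05 (SE 0.19, adjusted p = 0.957) in U1. Nos3 counted under its own symbol was lower, 60.5 ± 8.23 CPM in naive input and 74.8 ± 19.8 CPM in naive U1 (SD, n = 3). Its log2 ratio was 0.33 (SE 0.22, adjusted p = 0.443) in naive and 0.59 (SE 0.20, adjusted p = 0.0795) in MECS brain, neither called by edgeR.

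Slc2a1, the glucose transporter of the barrier, held a pair of features that differed from each other. The intronic Gm12867 had 51.0, 52.1 and 44.9 CPM in naive input, 137, 175 and 187 CPM in naive U1, 75.8, 58.8 and 48.5 CPM in MECS input and 258, 155 and 122 CPM in MECS U1. Every U1 value was above every input value. Gm12868, at the end of the gene, had 487, 362 and 357 CPM in naive input and 465, 541 and 779 CPM in naive U1, and here the groups overlapped. After MECS it had 588, 443 and 268 CPM in input and 923, 779 and 554 CPM in U1, again with overlap. In naive lysate 1 its U1 to input ratio was 0.955 (95% counting interval 0.835 to 1.09), the only ratio below 1 over the 10 features and 6 lysates, while lysates 2 and 3 gave 1.496 and 2.18. The log2 ratios were 1.78 (SE 0.20) for Gm12867 and 0.57 (SE 0.18) for Gm12868 in naive brain, and 1.53 (SE 0.23) and 0.79 (SE 0.21) after MECS. The 2 features share a host, so they are not independent. Slc2a1 itself was counted 8 to 40 times per library and was called in none of the 5 comparisons.

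At Abcb1a, the efflux pump gene, Gm42686 had 241, 211 and 185 CPM in naive input, 278, 419 and 451 CPM in naive U1, 207, 225 and 165 CPM in MECS input and 430, 397 and 248 CPM in MECS U1. U1 lay above input without overlap in both states. The log2 ratio was near 0.85 in each, 0.86 (SE 0.18) and 0.84 (SE 0.18), in the lower part of the range for these features. The single lysates spread from 1.15 to 2.44 in naive brain. Abcb1a itself had 10 to 38 counts, with log2 ratios of 0.35 (SE 0.40) and -0.35 (SE 0.41) that edgeR did not call (adjusted p = 0.696 and 0.708).

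The 2 transcription factor hosts gave similar pictures at a lower level. Gm12158, inside Ebf1, had 24.6, 25.3 and 42.5 CPM in naive input and 80.9, 121 and 183 CPM in naive U1. After MECS it had 34.1, 50.5 and 19.8 CPM in input and 106, 176 and 84.0 CPM in U1. Gm27240, inside Ets1, had 22.9, 26.8 and 23.98 CPM in naive input, 56.9, 63.7 and 94.3 CPM in naive U1, 34.1, 48.7 and 29.7 CPM in MECS input and 87.2, 103 and 74.5 CPM in MECS U1. For both, U1 lay above input without overlap in each state. The log2 ratio of Gm12158 was 2.03 (SE 0.26) in naive and 1.79 (SE 0.28) in MECS brain, and that of Gm27240 1.56 (SE 0.26) and 1.23 (SE 0.22). Ets1 and Ebf1 under their own symbols had 0 to 14 and 0 to 7 counts, too few to be tested.

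Within Fgd5, 4930466I24Rik had 13.2, 14.9 and 21.7 CPM in naive input and 50.6, 76.1 and 90.7 CPM in naive U1. After MECS it had 22.0, 29.4 and 16.8 CPM in input and 86.4, 117 and 57.3 CPM in U1. Its ratio was steady between lysates, 3.83 to 5.11 in naive and 3.41 to 3.99 in MECS brain. Fgd5 itself had only 5 to 19 counts and log2 ratios of 0.05 (SE 0.47) and -0.12 (SE 0.47), not called by edgeR (adjusted p = 0.975 and 0.923).

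Gja4 and Bvht are the 2 members without a host in GENCODE. Gja4 was almost absent from input, with 4, 2 and 7 counts in naive and 2, 7 and 1 in MECS input, against 10, 54 and 49 in naive U1 and 21, 39 and 25 in MECS U1. In CPM these were 3.52, 2.98 and 5.41, then 1.52, 6.43 and 0.989, then 12.6, 27.95 and 43.6, and last 16.4, 30.7 and 15.9. The groups did not overlap in either state, but the ratios were loose: 9.38 (95% counting interval 2.48 to 79.5) in naive lysate 2, where the input had 2 counts, and 16.1 (2.63 to 660) in MECS lysate 3, where it had 1. The fitted log2 ratio was 2.76 (SE 0.49) in naive and 2.79 (SE 0.53) in MECS brain, and 3.92 without MECS input 2.

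Bvht had 23.7, 23.8 and 39.5 CPM in naive input, 132, 105 and 251 CPM in naive U1, 31.1, 37.7 and 32.7 CPM in MECS input and 110, 195 and 106 CPM in MECS U1. The lowest U1 value of each state was above its highest input value. The log2 ratio was 2.44 (SE 0.28) in naive and 2.02 (SE 0.24) in MECS brain, the latter within its error of that of 4930466I24Rik (1.92, SE 0.27). Carmn, a smooth muscle noncoding gene on the other strand 2152 bases away in GENCODE, was counted 0 to 3 times in input and 2 to 13 times in U1, below the level needed for a test.

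Gm15419, inside the collagen gene Col4a2, stood apart from the other 9. Its input values were 21.1, 43.2 and 41.8 CPM in naive and 81.1, 50.5 and 71.2 CPM in MECS brain, and every MECS value was higher. In U1 RNA it had 48.04, 76.1 and 75.6 CPM in naive and 121, 55.9 and 83.4 CPM in MECS brain, where the groups overlapped. The U1 to input ratio was 2.28, 1.76 and 1.81 in the naive lysates and 1.49, 1.11 and 1.17 in the MECS lysates, so no MECS ratio reached a naive one. A fall of the ratio without overlap was seen in 4.71% of 11995 features. On the log2 scale the ratio was 0.96 (SE 0.26) in naive and 0.35 (SE 0.24) in MECS brain, the latter 0.05 without MECS U1 1 and 0.18 without MECS input 2. The test of the difference between the ratios gave -0.61 (SE 0.37, unadjusted p = 0.108, adjusted p = 0.997) by edgeR and did not pass.

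**Figure D2:**
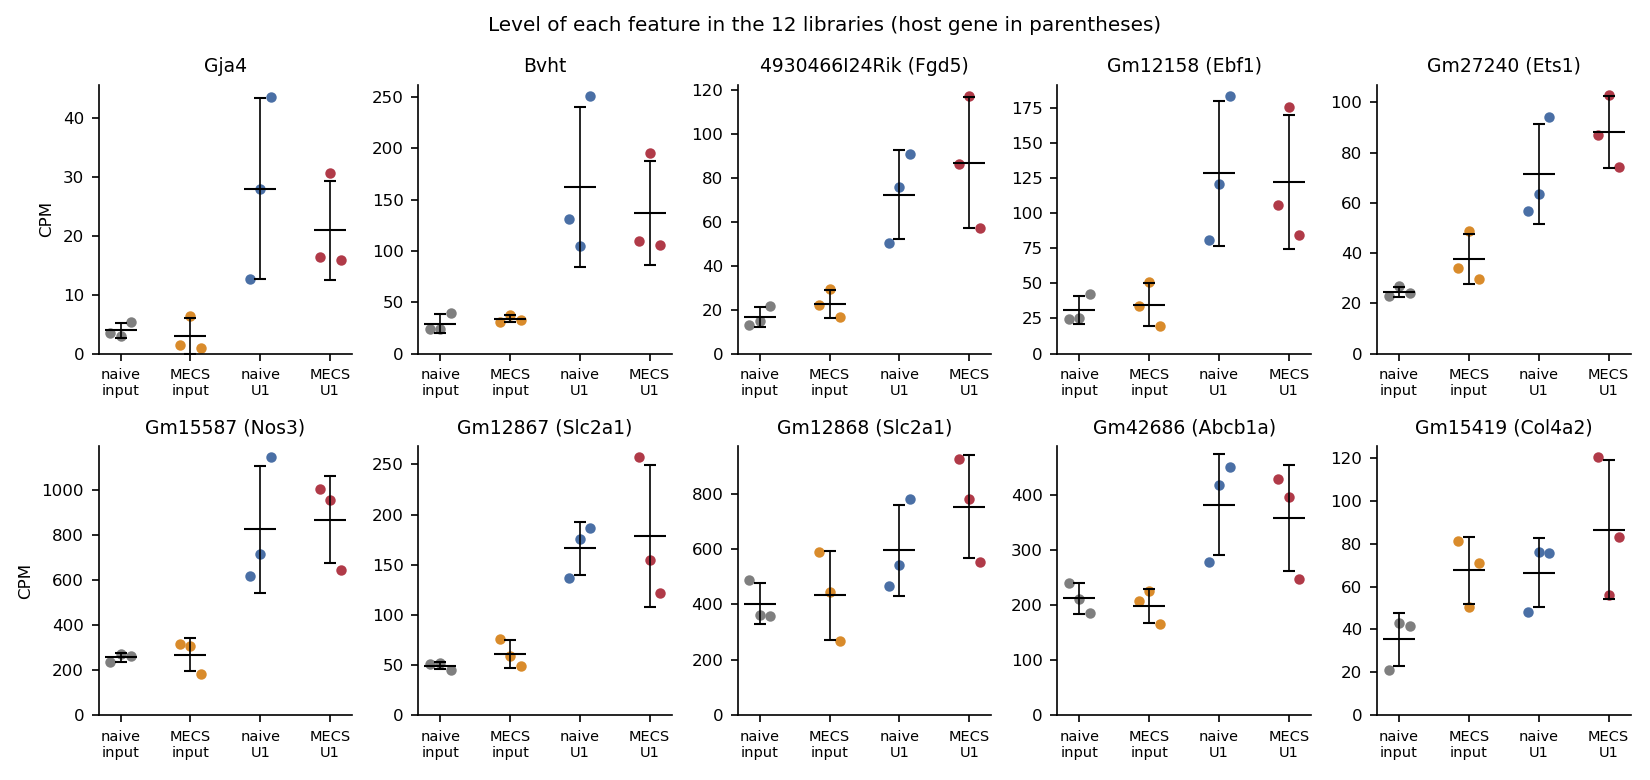
CPM of each feature (vertical axis, linear from 0) in the 3 libraries of each group, points being libraries in replicate order, with mean and SD in black and the host in parentheses. U1 points lie above input points for most features, with overlap for Gm12868 in both states and for Gm15419 after MECS.

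The features differed widely in level per kb of exon. In naive input Gm12868 had 964 ± 177 CPM per kb (SD, n = 3), Gm12867 108 ± 8.55 and Gm15587 68.1 ± 5.19, each above the next without overlap. Gm42686, Gm12158, Gm15419, Bvht and Gm27240 followed at mean levels of 51.7 to 36.3 CPM per kb, with neighbours in that order overlapping. The levels of 4930466I24Rik (7.32 ± 1.98) and Gja4 (2.36 ± 0.759) were the lowest, and did not overlap in naive input. In naive U1 RNA Bvht moved up to the third place at 232 ± 111 CPM per kb, overlapping Gm12867 above and Gm15587 below it.

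Taking all 10, the median log2 ratio of U1 to input was 1.74 in naive brain (0.57 to 2.76) and 1.61 after MECS (0.35 to 2.79), where the medians of all features tested were 0.03 and 0.02. The ratios chose these features and are no evidence about them. By that choice nearly all lay past the threshold, 10 in naive and 9 in MECS brain, and nothing is read from these counts. As background, 10.5% of all features were called in naive brain (4.19% higher, 6.26% lower) and 8.51% in MECS brain (3.30% higher, 5.21% lower). With the lysate as a replicate block, 1488 rather than 918 features were called in MECS brain. Some of the spread followed libraries: naive U1 1, the shallowest U1 library with 773074 counts, held the lowest U1 value for 9 of the 10 features, and MECS U1 3, the deepest MECS U1 library with 1666851 counts, the lowest after MECS for 9 of 10. MECS input 3, of the same lysate, held the lowest MECS input value for 8 of 10. The naive median was 1.87 without the former, and the MECS median 1.81 without the latter.

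**Figure D3:**
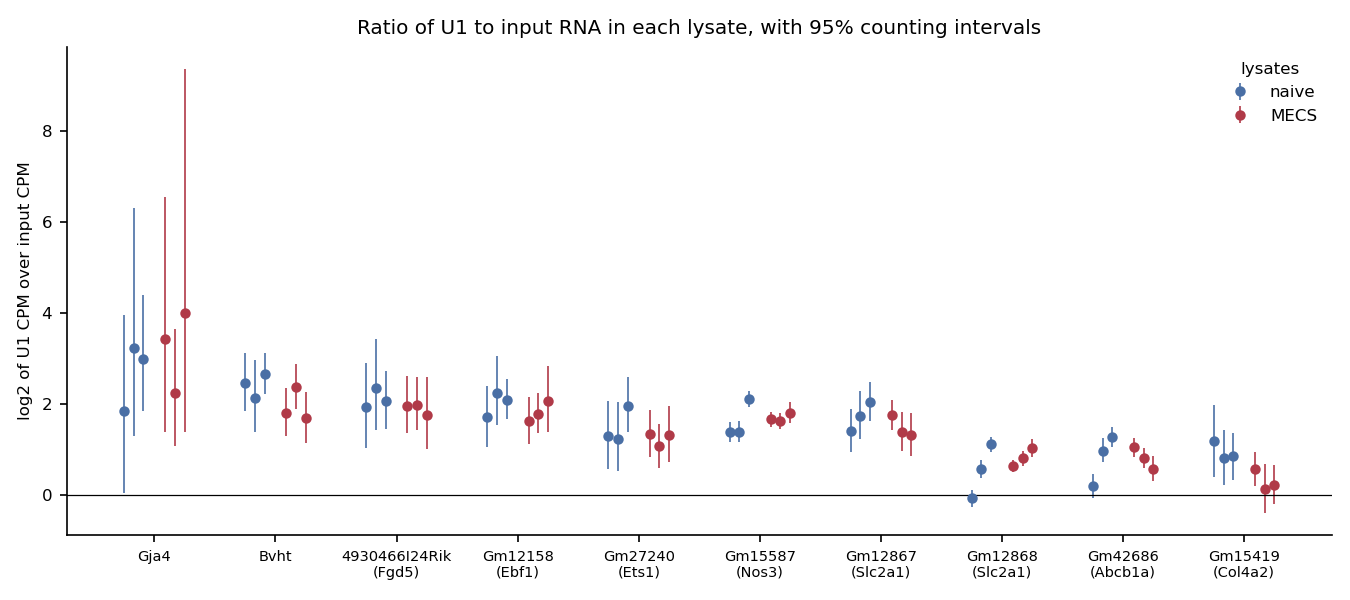
Log2 of U1 CPM over input CPM (vertical axis) in each of the 6 lysates for each feature, with 95% counting intervals as bars, naive in blue and MECS in red. Only Gm12868 in naive lysate 1 falls below 0, and the wide bars belong to Gja4, with 1 to 7 input counts.

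**Figure D4:**
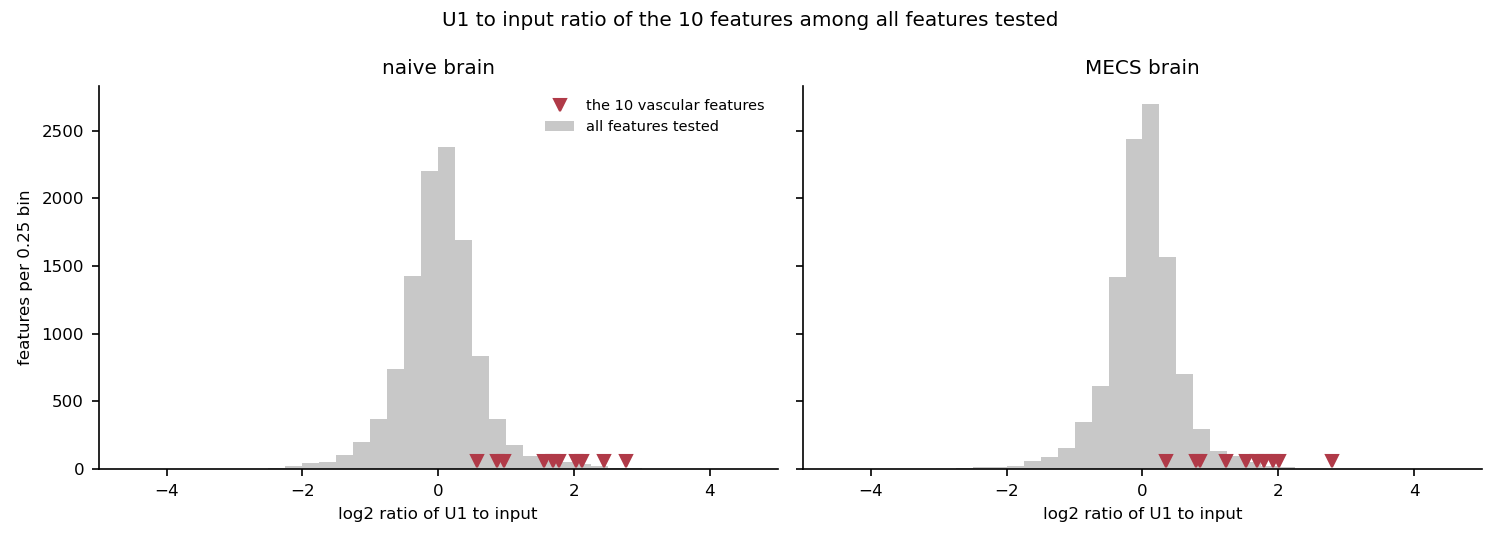
Number of features per 0.25 bin (vertical axis) by log2 ratio of U1 to input (horizontal axis), for all 10918 features tested in naive and 10791 in MECS brain, with red triangles at the ratios of the 10 features. The triangles run from 0.57 to 2.76 in naive and from 0.35 to 2.79 in MECS brain.

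Markers of other cell types also differed between U1 and input. For 5 pericyte and smooth muscle genes that host a feature, the summed CPM was 301 to 469 in naive input and 1565 to 2735 in naive U1, 332 to 477 in MECS input and 1441 to 2197 in MECS U1. All 5 were above 0 in both states; 4 were called higher in naive and 5 in MECS brain, where 7.10% and 5.10% of all hosts were called higher, among them Tagln (2.84, SE 0.22, and 2.40, SE 0.21) and Notch3 (1.83, SE 0.20, and 1.83, SE 0.18). Counted under their own symbols, the 18 genes of that list summed to 509 to 622 CPM in naive input and 646 to 731 CPM in naive U1, and to 532 to 582 CPM in MECS input and 543 to 589 CPM in MECS U1, which overlapped. Among them Mustn1 had 0 to 2 counts and Anpep 0 to 2. Under their own symbols 3 of 10 tested were called higher in naive and 1 of 9 in MECS brain, against 4.19% and 3.30% of all features. Hosts among neuronal genes summed to 5509 to 7118 CPM in naive input and 2427 to 3106 CPM in naive U1, with 3 of 6 called lower and 1 higher, against 8.91% and 7.10% of hosts. Hosts among astrocyte genes summed to 4219 to 6503 CPM and 1114 to 1299 CPM, with 2 of 2 lower. Oligodendrocyte genes under their own symbols had 502 to 742 CPM and 274 to 291 CPM (3 of 5 lower, against 6.26% of features). As hosts they had 49.2 to 64.0 CPM and 35.4 to 48.1 CPM, with 0 of 2 called. Under their own symbols 3 of 9 neuronal and 2 of 6 astrocyte genes were lower. After MECS 3 of 6 neuronal hosts, 2 of 2 astrocyte hosts and 3 of 5 oligodendrocyte own symbols were lower, against 6.12% of hosts and 5.21% of features. Microglial genes under their own symbols had 384 to 434 CPM and 335 to 345 CPM in naive brain (0 of 5 called). Of fibroblast genes 2 were tested and 0 called, with 36.9 to 69.98 CPM and 44.2 to 45.0 CPM. Haemoglobin genes (Hba-a1, Hba-a2, Hbb-bs and Hbb-bt) had 0 counts in all 12 libraries, and Alas2, the remaining erythroid gene, 220 to 861. Whether these cell type shifts had a part in the ratios was not tested.

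None of the 10 features passed the test for an effect of the convulsion, and the largest estimate was that of Gm15419 in input. In input RNA 9 were tested, since Gja4 had too few counts, and 0 were called by edgeR, as by DESeq2 and limma-voom, against 0.606% of all features (0.510% higher, 0.0961% lower). DESeq2 gave Gm15419 no adjusted p, so it could not have called that feature. Of the 9, 8 were above 0 and the median log2 change was 0.16, where 47.5% of all features were above 0 with a median of -0.02. These input values also entered the ratios on which the features were chosen, so nothing is read from this lean. Unadjusted p by edgeR was under 0.05 for 2 of the 9, against 1005 of all 10402 features tested. Gm15419 in Col4a2 had a log2 change of 0.94 (SE 0.26, 95% interval 0.41 to 1.47, adjusted p = 0.0851 by edgeR). It passed with library size scaling (1.00, adjusted p = 0.0388), without a filter on low counts (0.98, adjusted p = 0.0279) and without MECS input 2 (1.13, adjusted p = 0.0294), and was furthest from passing without naive input 1 (0.66, adjusted p = 0.499). Gm27240 in Ets1 had a log2 change of 0.60 (SE 0.28, adjusted p = 0.494), with no overlap of its groups. These 2 of 10 features with MECS input above naive input compare with 8.89% of all features.

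In U1 RNA all 10 were tested and 0 were called by edgeR, as by DESeq2 and limma-voom, against 0.386% of all features (0.332% higher, 0.0539% lower). For 0 of the 10 was the unadjusted p by edgeR under 0.05, against 1172 of all 11141 features tested. The log2 changes ran from -0.48 (SE 0.36, adjusted p = 0.698) for Gja4 to 0.34 (SE 0.24, adjusted p = 0.675) for Gm15419, with 6 above 0 and a median of 0.06. No feature had MECS U1 values wholly above or below the naive ones, where 8.77% of all features were wholly above and 84.6% overlapped. Several 95% intervals were wide: that of Gja4 was -1.22 to 0.25 and that of Bvht -0.78 to 0.27. The intervals of Gm15587 (-0.34 to 0.45) and Gm12867 (-0.36 to 0.50) were narrower.

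Comparing the ratios themselves between MECS and naive brain, 2 of 10 were above 0 and 8 below, with a median of -0.21. Among all features 50.6% were above 0, with a median of 0.007. The 10 features were chosen on their ratios in these same libraries, so nothing is read from this lean. EdgeR called 0, against 0% of 12184 features tested, of which 383 had an unadjusted p under 0.05. Beside Gm15419, the values ran from -0.42 (SE 0.41, adjusted p = 0.997) for Bvht to 0.23 (SE 0.29, adjusted p = 0.997) for Gm12868. Input libraries enter both the input comparison and this one, so the low value of Gm15419 here and its high value in input are not independent.

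**Figure D5:**
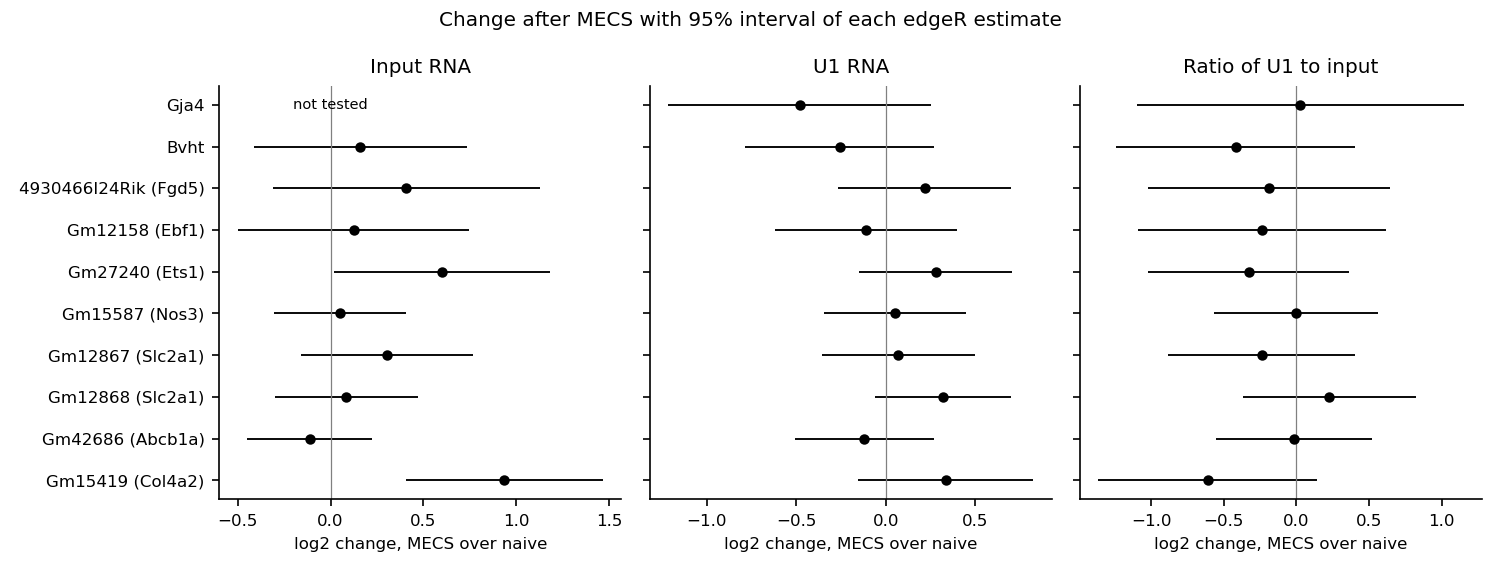
Log2 change of each feature, MECS over naive (horizontal axis), in input RNA, in U1 RNA and in the ratio of U1 to input, with points at the edgeR estimate and bars at its 95% interval. Gm15419 and Gm27240 have input intervals above 0, and all intervals for U1 RNA and for the ratio include 0.

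The other genes of the same systems were taken from lists of vessel genes, leaving out the 10 features and, for hosts, their host genes. A gene counts as host by the summed features on its opposite strand. Among blood-brain barrier genes, 6 hosts were tested, and 4 were higher in naive and 5 in MECS U1 than in input, against 16.0% of all hosts called in naive brain (7.10% higher, 8.91% lower) and 11.2% in MECS brain (5.10% higher, 6.12% lower). The taurine transporter host Slc6a6 went from 569 ± 84.9 to 982 ± 178 CPM (SD, n = 3) in naive brain, a log2 ratio of 0.79 (SE 0.16, adjusted p = 0.000601), and had 0.72 (SE 0.12, adjusted p = 0.000522) after MECS. Lsr, the tricellular junction receptor, had 1.00 (SE 0.18, adjusted p = 0.000148) and 1.07 (SE 0.15, adjusted p = 8.27e-05). Under their own symbols, 0 of 9 and 0 of 8 barrier genes were called by edgeR, for example Slc16a4, a monocarboxylate transporter relative, at -0.29 (SE 0.17, adjusted p = 0.365) and -0.26 (SE 0.14, adjusted p = 0.298). In the MECS comparisons 0 of 6 barrier hosts were called in either kind of RNA, where 2.11% of hosts were called in input (1.75% higher, 0.363% lower) and 1.07% in U1 (0.973% higher, 0.0941% lower).

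Of vascular signalling hosts, 3 of 7 were higher in naive U1 and 4 of 7 in MECS U1, against 7.10% and 5.10% of all hosts. Under their own symbols 0 of 14 genes were called in naive and 0 of 13 in MECS brain, with 10 and 11 above 0. Prkg1, the kinase downstream of nitric oxide and cyclic GMP, had log2 ratios of 0.83 (SE 0.15, adjusted p = 0.000157) and 0.48 (SE 0.13, adjusted p = 0.0209); the latter was lost without MECS input 3, MECS U1 1, MECS U1 2 or MECS U1 3, with adjusted p up to 0.125. Pde5a, which breaks down cyclic GMP, had 0.99 (SE 0.22, adjusted p = 0.00193) and 1.06 (SE 0.22, adjusted p = 0.00303) as host. Under its own symbol it had -0.21 (SE 0.42) and -0.35 (SE 0.40), not called by edgeR. Acvrl1, an endothelial receptor for bone morphogenetic proteins, had 1.85 (SE 0.24, adjusted p = 1.82e-06) and 1.69 (SE 0.27, adjusted p = 0.000262). Pde5a and Acvrl1 were named after their values were seen. Notch1 did not pass, with 0.02 (SE 0.17, adjusted p = 0.967) and 0.48 (SE 0.16, adjusted p = 0.0593), and neither did Angpt2 under its own symbol, with 0.15 (SE 0.17, adjusted p = 0.686) and 0.18 (SE 0.15, adjusted p = 0.566). No member of the list was called after MECS in input or in U1.

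Of vascular transcription factors, 2 of 4 hosts and 2 of 7 own symbols were higher in naive U1, and 3 of 4 and 3 of 7 in MECS U1. Over all hosts 7.10% were higher in naive and 5.10% in MECS brain, and over all features 4.19% and 3.30%. The host Lef1, the nuclear partner of Wnt signalling at the barrier, went from 212 ± 25.8 to 644 ± 176 CPM in naive brain, a log2 ratio of 1.601 (SE 0.17, adjusted p = 1.16e-07), and had 1.38 (SE 0.15, adjusted p = 9.6e-06) after MECS. Gata2 (2.27, SE 0.50, adjusted p = 0.00194, and 2.23, SE 0.47, adjusted p = 0.00296) and Tbx3 (2.23, SE 0.43, adjusted p = 0.000407, and 2.15, SE 0.46, adjusted p = 0.00285), both counted under their own symbols and named after their values were seen, kept their calls under each alternative run. Their counts were low, 2 to 42 per library for Gata2 and 3 to 58 for Tbx3. Elk3 did not pass, with 0.05 (SE 0.16, adjusted p = 0.906) and -0.08 (SE 0.14, adjusted p = 0.816). The host Foxo1 had 0.16 (SE 0.18, adjusted p = 0.649) and 0.52 (SE 0.16, adjusted p = 0.0481), the latter kept under 4 of 14 alternatives. After MECS, Foxo1 as host fell by 0.67 on the log2 scale in input (SE 0.17, adjusted p = 0.0382), from 184 ± 31.3 to 118 ± 24.6 CPM, and the host Etv6, named after its values were seen, rose by 0.67 (SE 0.16, adjusted p = 0.0325). Each lost its call without any 1 of the 3 naive inputs or without MECS input 3, and Foxo1 also without MECS input 2 and in the fit over all 12 libraries.

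Of 30 endothelial identity genes, 14 were tested in naive brain and 2 were higher in U1, Flt1 (1.21, SE 0.30, adjusted p = 0.00531) and Ptprb (0.86, SE 0.28, adjusted p = 0.0459), both receptors of the endothelial surface named after their values were seen. After MECS 1 of 13 was higher, Flt1 (1.12, SE 0.29, adjusted p = 0.0152). Of all features, 4.19% were higher in naive and 3.30% in MECS brain, and 1 of 13 is near the latter share. The Flt1 calls were lost without naive input 1, naive U1 3, MECS input 3 or MECS U1 1, with adjusted p up to 0.0988, and Ptprb lost its call under 11 of 15 alternatives. The 3 most abundant genes of the list, Tek (0.12, SE 0.17, adjusted p = 0.774 in naive brain), Podxl (0.30, SE 0.22, adjusted p = 0.487) and Mmrn2 (0.51, SE 0.24, adjusted p = 0.204), did not pass. None of the list was called after MECS in input (0 of 12) or in U1 (0 of 16). Of gap junction genes beside Gja4, 2 were tested and 0 called in any comparison, among them the arterial connexin Gja5 at -0.25 (SE 0.28, adjusted p = 0.684) and 0.10 (SE 0.27, adjusted p = 0.891).

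The basement membrane list bears on Gm15419. The feature Gm15418 (chromosome 8, 11187755 to 11204503, plus strand) lies opposite Col4a1, the partner chain gene next to Col4a2, and was chosen after its values were seen. It had 20.2, 14.9 and 20.1 CPM in naive and 53.8, 31.2 and 32.7 CPM in MECS input, and 26.6, 13.5 and 23.1 CPM in naive and 56.8, 39.4 and 41.4 CPM in MECS U1. Every MECS value was above every naive value in both kinds of RNA. Over all features neither change passed edgeR, 1.05 (SE 0.30, adjusted p = 0.0992) in input and 1.18 (SE 0.29, adjusted p = 0.0695) in U1. In the table of hosts, Col4a1 rose in U1 by 1.19 (SE 0.28, adjusted p = 0.0468), the only call among 3 basement membrane hosts. Of all hosts 1.07% were called in U1. The Col4a1 host sum contains Gm15418 itself, with p adjusted over 3187 hosts rather than 11141 features, so it is not a second result. The call of the host Col4a1 was lost with library size scaling, with the replicate block (1.14, adjusted p = 0.0566) and without naive U1 1, naive U1 2, MECS U1 1 or MECS U1 3, with adjusted p up to 0.309. Its ratio of U1 to input was small, 0.10 (SE 0.35, adjusted p = 0.897) in naive and 0.20 (SE 0.25, adjusted p = 0.710) in MECS brain, the latter near that of Gm15419 (0.35, SE 0.24). Col4a1 and Col4a2 under their own symbols were not called after MECS, with 0.45 (SE 0.31, adjusted p = 0.686) and 0.51 (SE 0.33, adjusted p = 0.664) in input. Itga5, Lamc1 and Lama5, the 3 most abundant entries, were not called in naive brain (adjusted p = 0.811, 0.343 and 0.266). For U1 against input, 1 of 3 basement membrane hosts was higher in each state, Nid1 in naive brain (0.88, SE 0.27, adjusted p = 0.0227) and Lamc1 after MECS (0.52, SE 0.16, adjusted p = 0.0482). Of all hosts, 7.10% were higher in naive and 5.10% in MECS brain. Under their own symbols 0 of 13 were higher and 1 lower in naive brain, and 1 higher and 1 lower after MECS. Of all features 4.19% were higher and 6.26% lower in naive brain, and 3.30% and 5.21% after MECS, and 1 of 13 is near these shares. The matricellular gene Sparcl1 was the lower one in both (-1.07, SE 0.31, adjusted p = 0.0189, and -1.41, SE 0.22, adjusted p = 0.000152), and the proteoglycan gene Hspg2 the higher one (1.42, SE 0.42, adjusted p = 0.0335). Nid1, Sparcl1 and Hspg2 were named after their values were seen. Of these calls, that of Sparcl1 after MECS held under 15 of 15 alternatives and its naive call under 12 of 15, that of Nid1 under 10 of 14, of Hspg2 under 6 of 15 and of Lamc1 under 1 of 14.

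The 50% rule drew a wide gap at the hosts. Just inside it was Gm12868, with 65.5% of its exon bases inside Slc2a1. Just outside were Atg9b, an autophagy gene that ends over Nos3 with 7.5% of its exon bases, and Col4a1 itself, with 0.3% inside Col4a2. Atg9b had log2 ratios of U1 to input of 1.15 (SE 0.22) in naive and 1.75 (SE 0.26) in MECS brain, and Col4a1 0.55 (SE 0.36) and 0.27 (SE 0.25).

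Across the 12 libraries the 10 features followed one another closely, except 1. Pearson's r of a feature's log2 CPM with the mean of the other 9 was 0.806 to 0.988 for 9 features and 0.520 for Gm15419, over 12 libraries that differ above all between U1 and input, the contrast on which the features were chosen. The 5 features most like their mean, of 15838 ranked, were Rundc3b (r = 0.983), Erg28 (0.983), Dnah3 (0.982), Kat5 (0.981) and Zfp704 (0.980). Rundc3b (chromosome 5, 8490334 to 8622952, minus strand) lies before Abcb1a on the chromosome, with 31.7 to 65.2 CPM in input and 156 to 278 CPM in U1. Such likeness comes from 12 libraries in which input and U1 form separate clusters, and carries no test.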

How the data were processed

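Total RNA and U1-70K precipitated RNA were sequenced from 3 naive and 3 MECS lysates. The authors deposited whole-number counts per Ensembl identifier, 1 table per library, without normalization. Per the submitters' processing notes, the tools were DESeq2, FastQC, Salmon 1.4, HISAT2 2.2.0, Trimmomatic 0.39 and StringTie 2.1.3, on build mm10, with no role stated for any. No source used here names the counting program, its annotation or its strand setting. Per the labels' protocols, reads were single-end, 100 bp. Rows naming no gene (88.3% to 91.3% of listed reads in no gene) were left out.

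Identifiers were matched to GENCODE M21 (55230 of 55471). Counts were tested in R 4.3.3 with edgeR 4.0.16: quasi-likelihood fits over all features, TMM scaling, filterByExpr, Benjamini-Hochberg adjustment, threshold 0.05, using the groups compared or, for the ratio difference, all 12 libraries. Host tables used the summed counts of features on the opposite strand. DESeq2 1.42.0, limma-voom (limma 3.58.1), other scalings and filters, left-out libraries and a replicate block were alternatives. Counting intervals are 95% and cover counting error only. CPM used TMM-scaled totals over all 12 libraries. The steps were tested on simulated data.

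Input and U1 libraries share a title prefix, and the protocol took input from the lysate, so they pair. The main fits of U1 against input did not use this pairing, whereas the replicate block did. Deviations from group means correlated between paired libraries at 0.02, -0.10 and -0.02 in naive and 0.11, 0.22 and 0.12 in MECS brain. Between unpaired input and U1 libraries the correlations ran from -0.07 to 0.07 in naive and from -0.14 to 0.02 in MECS brain.

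Named were all 10 features, the 3 most abundant tested entries of each list (those of cell type lists were summarised) and the 5 features most correlated with the members' mean; others are marked in the text. Members and lists were chosen with earlier results of these data known.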

Additional observations from a re-analysis of the deposited data

How the results depend on the processing

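Among the 3 comparisons of MECS with naive brain, calls for the 10 features depended on the processing in input RNA only. The 0 called after MECS became 1, Gm15419, with library size scaling and 1 without a filter on low counts, and 0 to 1 with 1 library left out (1 without MECS input 2); DESeq2 gave it no adjusted p. In U1 RNA and for the ratio the count was 0 under each alternative run. The median log2 ratio of U1 to input after MECS, 1.61, was 1.69 with at least 80% of exon bases inside the host, which leaves out Gm12868, and 1.41 to 1.81 with 1 library left out. In naive brain it was 1.74, with a range of 1.52 to 1.87 over all alternatives. With the replicate block the medians were 1.71 and 1.62, the count of the 10 features called after MECS stayed at 0 in both kinds of RNA, and among the named genes it ended the calls of Ptprb and Col4a1. Naive and MECS libraries with the same number come from different animals and share only a number; their deviations correlated at 0.07, -0.03 and 0.00 in input. Over all features, the count called after MECS in input was 63, from 49 with limma-voom to 142 with the replicate block, and 19 to 114 with 1 library left out; in U1 it was 43, from 35 to 151 without a filter, and 13 to 225. For U1 against input the counts were 1141 in naive brain (711 without naive input 1) and 918 after MECS (613 without MECS U1 1, 1488 with the replicate block). The 1141 split into 458 higher and 683 lower, and with library size scaling into 565 and 562, as the median of all features went from 0.03 to 0.11. Of 78 calls among list entries, 53 held under each alternative run and 25 were lost under at least 1. Depth limits Gja4 most: with 1 to 7 input counts its ratio is known only within wide counting intervals.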
